A study of Mus musculus with 2 samples.

Results

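In the testis of mice aged 24 months, 114 Leydig cells without a Ccl2 count passed a set limit of Klk1b (tissue kallikrein family) transcripts. At 2 months most Leydig cells passed the same rule. A Klk1b count of any size was found in 331 of 646 Leydig cells at 24 months. The 114 cells were chosen by a rule on their own counts in the 24-month single-cell table. A cell was taken as a Leydig cell when Cyp17a1, Ptgds, Hsd3b6 and Star together made up 1% or more of its counts. It was taken as a member when Klk1b21, Klk1b22, Klk1b24 and Klk1b27 together made up 0.05% or more and Ccl2 had no count. The rule found 114 members among 646 Leydig cells of that table and among 9594 cells of both tables. The comparison group, called low-Klk1b cells, was the 397 Leydig cells of the same table under 0.05% with no Ccl2 count. The study measured testicular tissue of mice aged 2 months (young) and 24 months (aged), with 1 library per age on the BD Rhapsody system. All mice were anesthetized with Avertin and their testes digested with accutase. The labels call the cells stroma cells and give no strain, genotype, treatment or number of mice. In the young library the same rule gave 999 Klk1b-rich and 105 low-Klk1b cells among 1144 Leydig cells. Since each age has only 1 library, there is no replicate check on any difference and no test was made. Every interval given is a 95% interval that covers counting error only.

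Leydig cells lie between the seminiferous tubules and make testosterone from cholesterol under luteinizing hormone. Star moves cholesterol into the mitochondrion, Cyp11a1 makes pregnenolone, and Hsd3b6, Hsd3b1, Cyp17a1 and Hsd17b3 carry it on to testosterone. The Klk1b genes of the mouse are a tandem cluster of secreted serine proteases related to tissue kallikrein, Klk1, and several of them are known as genes of adult Leydig cells. Ccl2 encodes a chemokine that draws monocytes.

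All counts of a group's cells were added up, and the level of a gene is its part of that sum, in counts per 1000000 (CPM). The members held 585015 counts and the low-Klk1b cells 1863067. The members had 542 to 13984 counts per cell with a median of 4984, and the low-Klk1b cells had a median of 4552. Median mitochondrially encoded shares were 5.31% and 5.61%. The young Klk1b-rich cells were deeper, with a median of 7099 counts. The Scrublet doublet caller marked 3 of 114 members and 15 of 397 low-Klk1b cells, and they were kept. The tables share 35 cell indices, 1 of them a member, and whether these are bead codes of one numbering is not given in the sources used here.

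The Klk1b share of a cell set the membership, so the following values are a description. In the members the share ran from 0.05% to 0.529% with a median of 0.0926%, which came from a median of 5 Klk1b counts per cell. Only 15 members had 10 or more Klk1b counts, 96 had 3 or more, 12 had 2 and 6 had 1. Of the low-Klk1b cells, 250 had no Klk1b count, 96 had 1 and 39 had 2. Near the limit, the lowest member had 1 Klk1b count in 2000 (0.05%), and the highest low-Klk1b cell had 3 in 6001 (0.04999%). The members thus form the upper end of a range without a gap, with 18 cells between 0.05% and 0.06% and 21 low-Klk1b cells between 0.04% and 0.05%. Young Klk1b-rich cells reached 1.66% with a median of 0.318%.

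**Figure D1:**
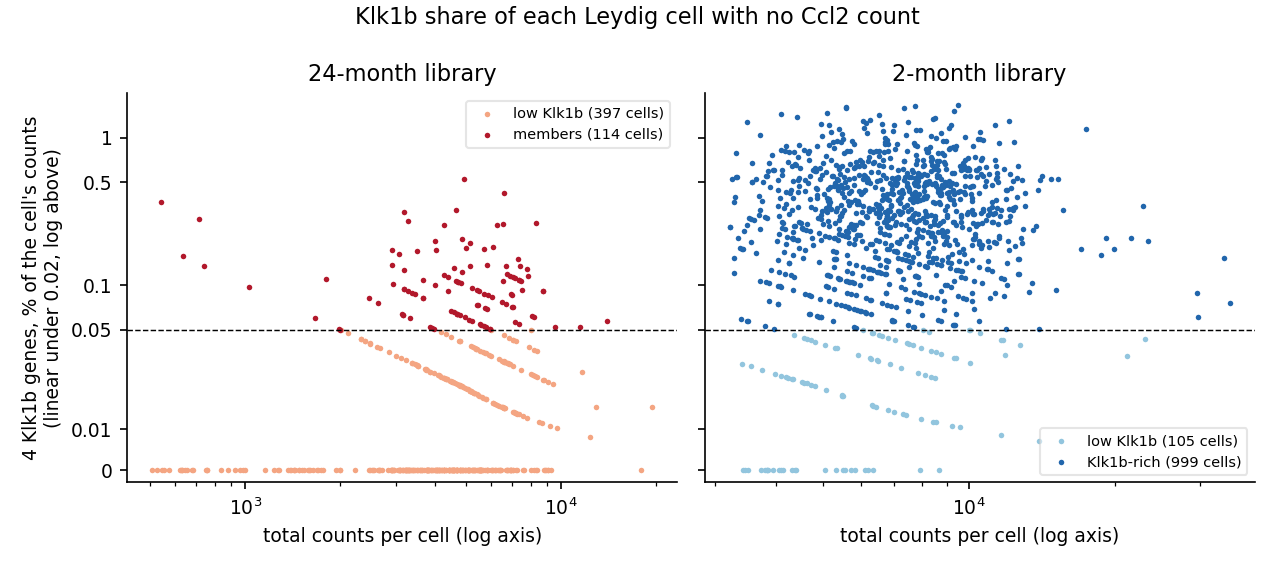
Each point is 1 Leydig cell with no Ccl2 count, by its total counts (x, log axis) and the percent of them in the 4 Klk1b genes (y, linear under 0.02% and log above), in the 24-month (left) and 2-month (right) libraries. The dashed line is the 0.05% limit. The 114 aged members reach from it to 0.529% with a median of 0.0926%, and the 999 young Klk1b-rich cells have a median of 0.318%.

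The members were 17.6% of aged Leydig cells (14.8% to 20.8%), and the young share by the same rule was 87.3% (85.3% to 89.2%). Each cell was also thinned to 2000 counts so that depth was the same. The thinning left out 57 aged Leydig cells as shallower. A Klk1b count then remained in 34.6% of 589 aged and 91.7% of 1144 young Leydig cells, against 51.2% and 97.6% at full depth. Cells outside the Leydig rule gave the background. After thinning, which left out 1273 shallower aged cells, 0.231% of those aged cells and 3.26% of those young cells held a Klk1b count, and 11 of 5166 aged cells (0.213%) reached 0.05%. At full depth these backgrounds were 0.794% and 23.9%, with medians of 13368 and 28108 counts per cell. Among 135 aged Leydig cells with a Ccl2 count, which the rule leaves out, 34 (25.2%) also reached 0.05%.

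The 4 Klk1b genes that define the members lie in the Klk1b cluster on chromosome 7, with Klk1b16 between Klk1b22 and Klk1b24. A short stretch of their promoters is shown here because the sum of the 4 defines the members. All 4 were also higher in young Klk1b-rich cells than in members. Each line gives the 80 bases of the RefSeq promoter (GRCm38.p6, plus strand, 5′ to 3′) that end with the A/T-rich stretch TTTAAA, in capitals, which lies ahead of the gene start in GENCODE M21.
Klk1b21: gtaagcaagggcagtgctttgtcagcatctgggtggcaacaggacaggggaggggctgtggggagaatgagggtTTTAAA
Klk1b24: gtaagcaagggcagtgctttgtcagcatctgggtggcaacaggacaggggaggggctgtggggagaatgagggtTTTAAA
Klk1b27: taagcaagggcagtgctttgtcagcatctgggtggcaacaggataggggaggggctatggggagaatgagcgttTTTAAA
Klk1b22: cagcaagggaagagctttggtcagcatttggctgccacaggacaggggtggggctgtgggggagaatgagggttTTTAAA
The windows are at chr7:44102222-44102301, chr7:44188131-44188210, chr7:44052199-44052278 and chr7:44112559-44112638 in that order. Counted from the RefSeq start, the first base of TTTAAA is at 5, past the start, in Klk1b21. It is at -31 in Klk1b24, -17 in Klk1b27 and -40 in Klk1b22, so its place is not the same. The windows of Klk1b21 and Klk1b24 were the same at all 80 bases, Klk1b27 matched them over 93.8% of aligned positions, and Klk1b22 over 84.3%. Over the whole 300-base promoters the pairs of these 4 genes were 58.6% to 83.1% identical. Those promoters were placed by the RefSeq starts, which differ between the genes, and gaps count among the aligned positions. Whether the windows are the more alike stretch therefore cannot be told from these values and was not tested. On either strand TTTAAA was found in the 300-base promoters of 5 of 6 genes searched (these 4 and Klk1b16, not Klk1) and in 13.2% of all 32851 promoters. TTTAAA was searched as a stretch that promoters of this cluster share, and the genes are related copies, so the 5 of 6 is a description. TATAA was found in none of the 6 and in 24.9% of all. AGAACA, an arm of the androgen and glucocorticoid response element, was found only in Klk1b24 among the 6 (19.0% of all), and AAGGTCA, the core bound by Nr5a1, only in Klk1b21 and Klk1 (4.72% of all). Such matches describe letters only. The transcripts of the 4 genes are 84.6% to 92.7% identical in pairs, so counts could be split between copies and the sum of the 4 is firmer than any single gene.

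Klk1b21 and Klk1b24 gave most of the Klk1b counts of the members. Klk1b21 stood at 424 CPM in the members (373 to 480), 43.5 in low-Klk1b cells, 1496 in young Klk1b-rich cells and 99.7 in young low-Klk1b cells. Klk1b24 stood at 415, 50.4, 1010 and 111 CPM in the same order. Each of these 2 genes had a count in 94 of 114 members. Klk1b27 followed with 231, 16.1, 1058 and 32.3 CPM and a count in 69 members. Klk1b22 was the least abundant, with 59.8, 3.22, 285 and 9.83 CPM and a count in 27 members. Of the members, 13 held 1 of the 4 genes, 45 held 2, 43 held 3 and 13 held all 4.

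The levels of the 4 genes, which chose both groups, were lower in members than in young Klk1b-rich cells, and are given as a description. The sum of the 4 genes was 1130 CPM in members (1045 to 1219) and 3849 CPM in young Klk1b-rich cells (3805 to 3894). Klk1b24 was 2.43-fold lower in members than in young Klk1b-rich cells (2.14 to 2.77). Klk1b21 was 3.53-fold lower (3.11 to 4.02), Klk1b27 4.59-fold (3.87 to 5.48) and Klk1b22 4.77-fold (3.42 to 6.86). Since copies may share counts, the order of these single-gene ratios is less firm than the sum. Age, library and file processing cannot be told apart in these ratios.

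The Klk1 family holds 10 further genes that the rule did not use. Klk1b16 was 116 CPM in members (90.3 to 147) and 17.7 in low-Klk1b cells (12.2 to 24.9), a 6.56-fold difference (4.27 to 10.3), and 196 and 39.3 CPM in the young groups. It had a count in 41 members. Klk1b16 shares sequence with the 4 rule genes, so miscounted copies cannot be told apart from its own transcripts. Klk1, the tissue kallikrein gene, was 244 CPM in members and 3.22 in low-Klk1b cells, but its 143 counts came from 8 members and 76 of them from 1 cell. The other 8 genes were at 0 to 7 counts in the members, and Klk1b1, Klk1b3 and Klk1b4 had none, where the Poisson interval reaches 6.31 CPM.

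**Figure D2:**
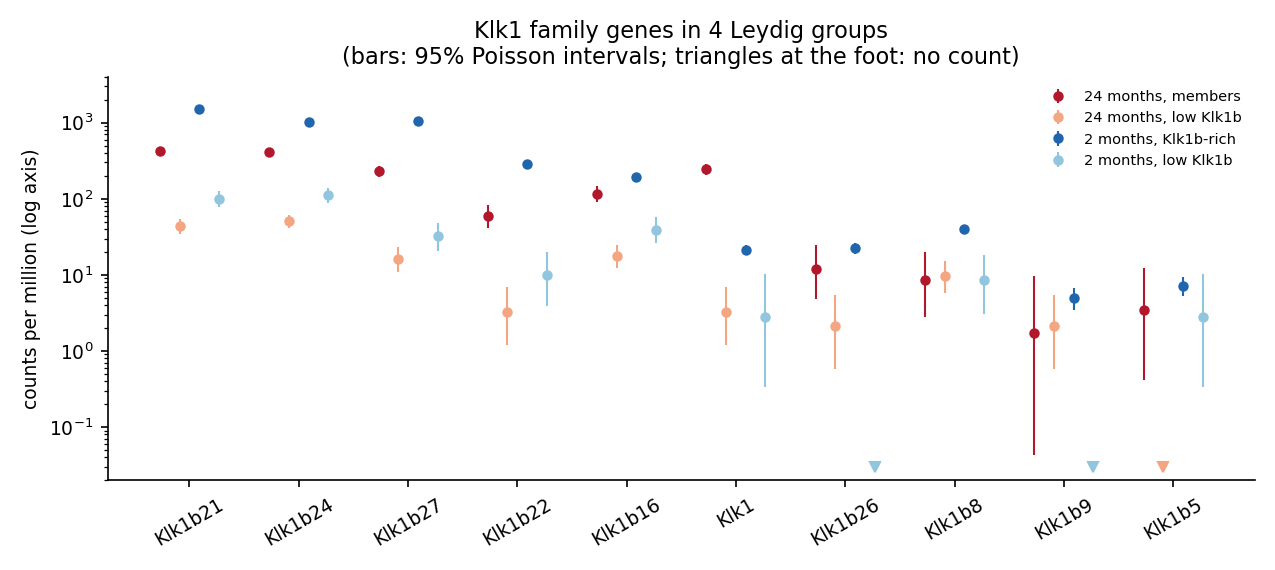
CPM (y, log axis) of 10 Klk1 family genes in the 4 Leydig groups, with 95% Poisson intervals and triangles at the foot where a group has no count. For the 4 rule genes and Klk1b16 the order is young Klk1b-rich, members, young low-Klk1b and aged low-Klk1b, and Klk1 in members rests on 8 cells.

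The summed markers of Leydig cells were close in the 2 aged groups. All 14 Leydig markers had counts in both groups, with sums of 47960 and 43980 CPM. The 14 include the 4 Leydig genes of the rule and Klk1b21, Klk1b24 and Klk1b27. Ptgds alone gave 27580 and 24840 CPM, so the rule largely set these sums, and they are a description. Cyp17a1, a rule gene, was 6952 CPM in members and 6304 in low-Klk1b cells, was absent from 1 member and 15 low-Klk1b cells, and reached 10330 CPM in young Klk1b-rich cells. Star was 1756 and 2049 CPM in the aged groups. Outside the rule genes, Cyp11a1 was 2607 and 2542 CPM, and Hsd17b3, which makes testosterone, 1737 and 1532. Sertoli cell markers summed to 4046 and 3789 CPM, with the defining genes Sox9, Amh, Cldn11 and Rhox5 at 0 in both aged groups.

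Across 6380 genes with 50 or more counts over both aged groups, and without the rule genes, 226 (3.54%) were 1.5-fold or more higher in members and 505 (7.92%) lower. The median log2 ratio was -0.01. A gene counts here by the size of its ratio alone, after adding 0.5 to each count. In the young library the same count over 10640 genes gave 8.67% higher and 11.4% lower in Klk1b-rich cells, where the low-Klk1b group held 105 cells.

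Among steroidogenic genes Hsd3b1 stood apart. Of 11 measured genes of that list none was past 1.5-fold higher and only Hsd3b1 was past it lower, against 3.54% and 7.92% of all measured genes. The list median was 0.05 on the log2 scale. Hsd3b1, which encodes an isoform of 3-beta-hydroxysteroid dehydrogenase next to Hsd3b6, was 978 CPM in members and 1537 in low-Klk1b cells. In young cells it was 1133 CPM in the Klk1b-rich and 1791 in the low-Klk1b group. It was therefore lower where Klk1b was high in both libraries, by 0.65 and 0.66 on the log2 scale. By Klk1b share, Hsd3b1 was 1570 CPM in aged cells with no Klk1b count, 1497 up to 0.05%, 975 from 0.05% to 0.1%, 1088 from 0.1% to 0.2% and 620 in the 13 cells above. Per 10000 counts the median cell held 4.03 Hsd3b1 counts among members and 8.11 among low-Klk1b cells, and the ranges of 0 to 66.0 and 0 to 120 overlap widely. Hsd3b6, a rule gene, was higher in members (3344 against 2849 CPM), and as close paralogs the 2 genes could exchange counts. The log2 ratio of Hsd3b1 was just under 1.5-fold, at -0.56, with members taken at 0.1% Klk1b, and at -0.58 with a Leydig minimum of 2%.

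Genes for hormones, receptors and transcription factors of Leydig cells showed 1 of 16 measured members past 1.5-fold higher and 2 lower, with a median of -0.16. Over all measured genes the shares were 3.54% and 7.92%. Insl3, the insulin-like peptide of mature Leydig cells, was 106 CPM in members (62 counts) and 64.4 in low-Klk1b cells (120 counts), a 1.65-fold difference (1.19 to 2.25). It was 114 and 82.9 CPM in the young groups. Gata6, a transcription factor of the somatic gonad, was 58.1 CPM in members and 98.8 in low-Klk1b cells, and 21.3 and 42.1 in the young groups. Igf1r, the receptor for insulin-like growth factor, was 54.7 and 87.5 CPM in the aged groups and 63.8 and 60.4 in the young ones. The 2 most abundant genes of the list, Vcam1 and Prlr, were within 1.5-fold at both ages. After thinning to 2000 counts Insl3 was 89.6 and 69.6 CPM, under 1.5-fold apart, and with members at 0.1% Klk1b the log2 ratio of Gata6 was -0.51.

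Cholesterol genes were lower as a group and mostly by small steps. Of 28 measured genes of cholesterol synthesis and handling, 26 had a lower level in members than in low-Klk1b cells, against 51.8% of all measured genes. Past 1.5-fold lower were 2 genes, among them Mvd, a decarboxylase of the mevalonate pathway, at 22.2 and 46.2 CPM (log2 ratio -0.52, under 1.5-fold, with members at 0.1% Klk1b). No gene of the list was past 1.5-fold higher, and the median log2 ratio was -0.28. Over all measured genes 7.92% were past it lower and 3.54% higher. Hmgcs1, the synthase of the mevalonate pathway, was 446 CPM in members (261 counts) and 604 in low-Klk1b cells. Cyp51, the lanosterol demethylase, was 514 and 710 CPM, and Msmo1, a methyl sterol oxidase, 778 and 942. In the young library 29 of 30 measured genes of the list were lower in Klk1b-rich cells, 7 of them past 1.5-fold. Of all genes measured there 58.9% had a lower level, and 11.4% were past 1.5-fold lower. The young median was -0.37, and Cyp51 there was 442 and 681 CPM.

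**Figure D3:**
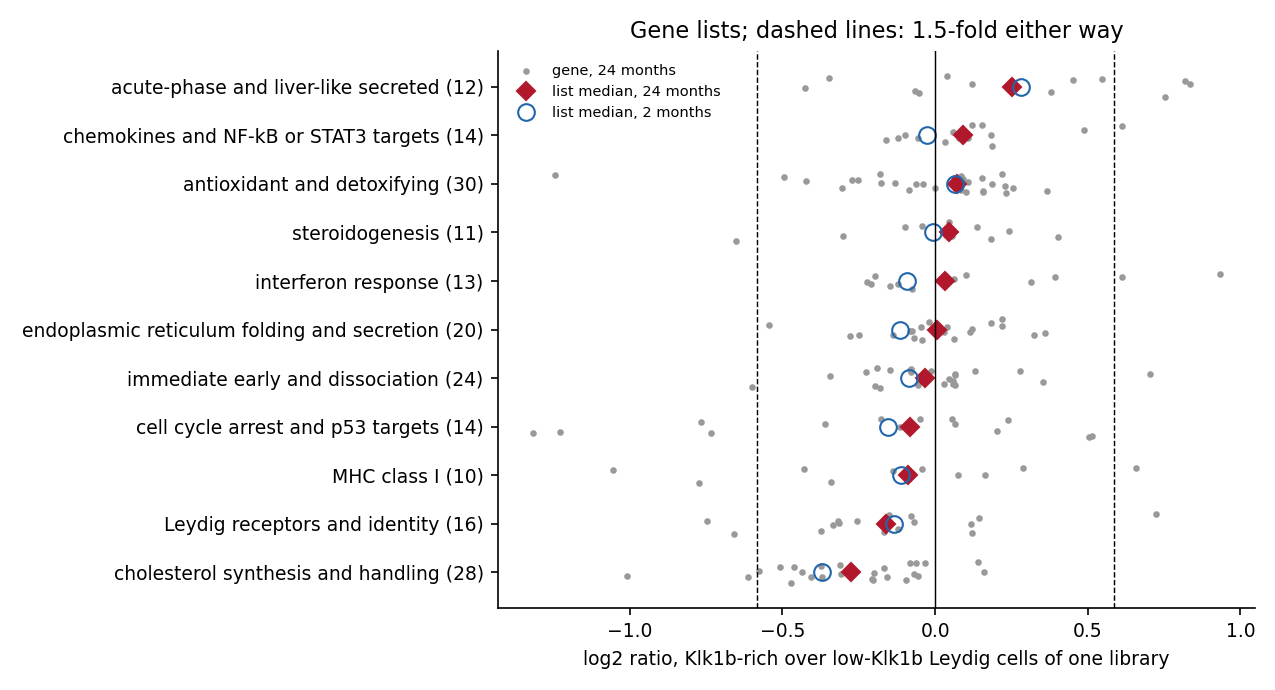
Log2 ratios (x) of Klk1b-rich over low-Klk1b Leydig cells for 11 gene lists, with the number of genes measured at 24 months in brackets. Grey points are genes at 24 months, red diamonds list medians at 24 months and blue circles list medians at 2 months. The cholesterol list has the lowest median and the acute-phase list the highest at both ages, and no list median passes 1.5-fold (dashed lines).

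Among secreted proteins of the acute phase and of liver-like type Lcn2 was higher in members. Of 12 measured genes of that list 3 (Lcn2, Cp and Saa3) were past 1.5-fold higher in members and none lower, against 3.54% and 7.92% of all measured genes. Below equality were 4, and the median was 0.25 (0.04 with a minimum of 20 counts per gene). Lcn2, which encodes the iron-siderophore binding lipocalin 2, was the main difference in amount. It took 16030 CPM in members and 9522 in low-Klk1b cells, a 1.68-fold difference (1.64 to 1.73). In young cells it was 13210 CPM in the Klk1b-rich and 7187 in the low-Klk1b group. The median member held 144 Lcn2 counts per 10000 and the median low-Klk1b cell 79.4, and 113 of 114 members had a count. With the Klk1b share Lcn2 went from 8524 CPM in aged cells with no Klk1b count to 10740 up to 0.05%, 15800 from 0.05% to 0.1%, 16540 from 0.1% to 0.2% and 15670 in the 13 cells above. In the young library it was 5526, 7547, 10480, 12070 and 13940 CPM over the same steps. Single cells of the groups overlap, as the highest low-Klk1b cell held 436 per 10000 and the highest member 512. Cp, the copper-binding ferroxidase ceruloplasmin, was 217 and 122 CPM at 24 months and 157 and 169 at 2 months. Saa3, serum amyloid A, was 65.0 and 37.0 CPM, with 38 counts in members, 42.1% of them from 1 cell, and its log2 ratio was -0.27 with members at 0.1% Klk1b. Agt, which encodes angiotensinogen and is the other most abundant gene of the list, was level at 9519 and 9872 CPM.

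Genes of cell cycle arrest and the p53 response held 4 of 14 measured genes past 1.5-fold lower in members and none higher, with a median of -0.08, where 7.92% of all measured genes were lower. Cdkn1a, the p21 inhibitor of cyclin-dependent kinases, was 68.4 CPM in members (40 counts) and 172 in low-Klk1b cells (321 counts), a 2.52-fold difference (1.81 to 3.59). It had a count in 20 of 114 members and 112 of 397 low-Klk1b cells. In the young library Cdkn1a was 27.8 CPM in Klk1b-rich and 129 in low-Klk1b cells. Phlda3, a p53 target, was 13.7 and 33.8 CPM in the aged groups on 8 and 63 counts. The other 2 genes past the limit, Zmat3 and Aen, had 16 and 13 counts in members, and the log2 ratio of Zmat3 was -0.04 after thinning and -0.08 with members at 0.1% Klk1b. After thinning Phlda3 was at -0.55. The 2 most abundant genes of the list, Igfbp7 and Btg2, were within 1.5-fold in both libraries.

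**Figure D4:**
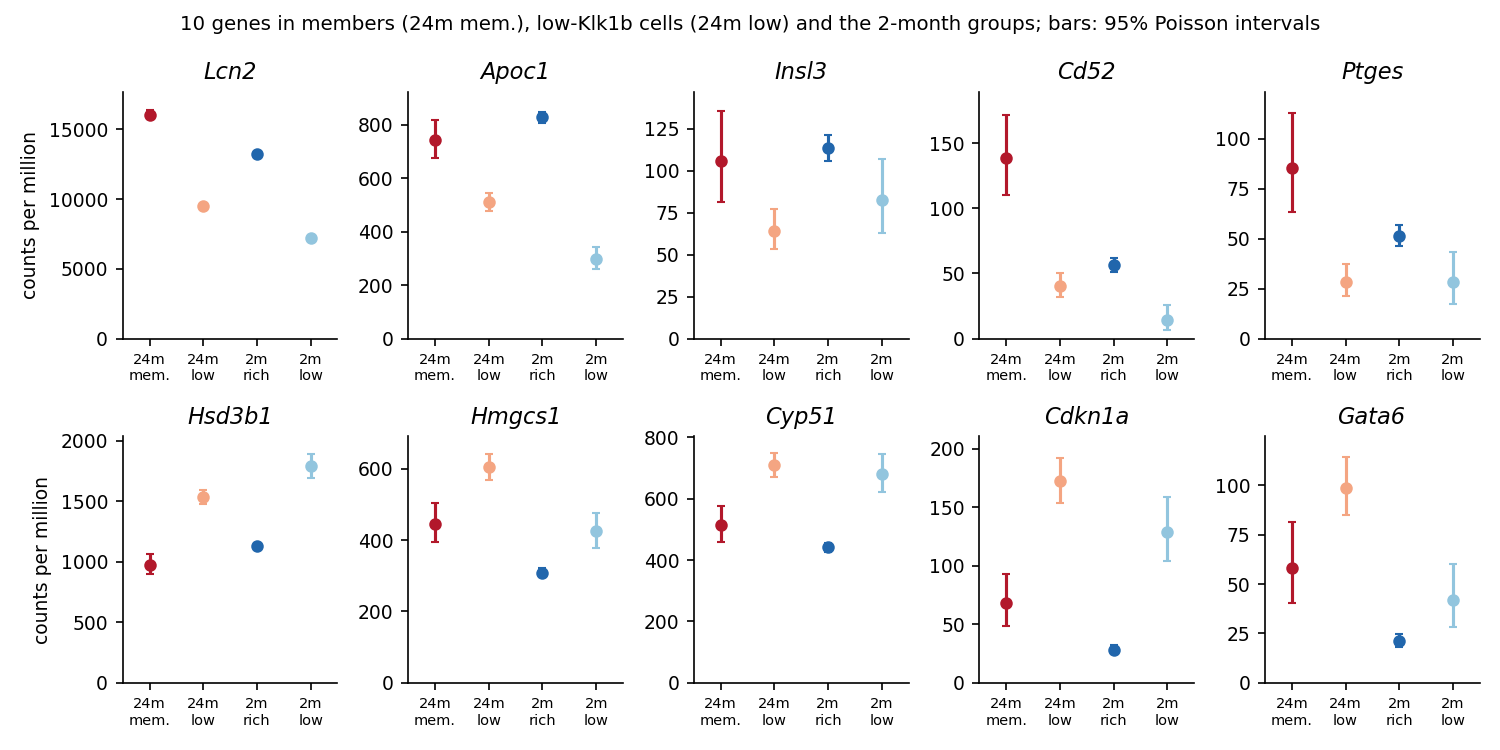
CPM (y, each axis from 0) of 10 genes, chosen after their values were seen, in aged members, aged low-Klk1b cells, young Klk1b-rich cells and young low-Klk1b cells, with 95% Poisson intervals. In each library the 5 genes of the top row are higher, and the 5 of the bottom row lower, in the group with more Klk1b.

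The other lists were near level, where 3.54% of all measured genes were past 1.5-fold higher and 7.92% lower. Chemokine and NF-kB or STAT3 target genes had 1 of 14 measured genes past 1.5-fold higher, Cxcl10, with 520 and 340 CPM at 24 months and 65.8 and 36.5 at 2 months. Its log2 ratio was under 1.5-fold after thinning, at 0.31, without doublets, at 0.52, and without cells holding macrophage or spermatid transcripts, at 0.41. Interferon response genes had 2 of 13 higher, Igtp on 19 counts and Rsad2 on 17, with a median of 0.03, and the log2 ratio of Rsad2 was -0.51 after thinning. The MHC class I list had 1 of 10 higher and 2 lower, the peptide loading genes Tap2 and Tapbp, of which Tapbp was under 1.5-fold after thinning (-0.44). Immediate early genes, which tissue digestion can switch on, had 1 of 24 higher (Gadd45b), 1 lower (Dnajb1, at -0.38 after thinning) and a median of -0.03. Fos was 1694 and 1791 CPM. Antioxidant genes had 0 of 30 higher and 1 lower, Gpx3, at 27.4 and 66.6 CPM, which was under 1.5-fold with members at 0.1% Klk1b (-0.39). None of 20 endoplasmic reticulum genes or 12 mitochondrially encoded genes passed 1.5-fold, and 1 of 78 ribosomal protein genes was lower.

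Genes were then named by rank, as the 12 highest and 12 lowest ratios among genes seen in 10% or more of the higher group's cells with no cell giving over 25% of its counts. After Klk1b16, the highest was Cd52, a small surface glycoprotein of lymphocytes and the male tract, at 138 CPM in members (110 to 172) and 40.3 in low-Klk1b cells (31.7 to 50.5). It had a count in 33 of 114 members and 53 of 397 low-Klk1b cells, and in young cells it was 56.6 and 14.0 CPM. Macrophages also carry Cd52, and their 12 markers had 7 counts in all members. The source of the Cd52 counts was not tested. Ptges, a prostaglandin E synthase, was 85.5 and 28.4 CPM in the aged groups and 51.4 and 28.1 in the young ones. Ly6k, a surface protein of the Ly6 family, was 260 and 95.5 CPM, but its 152 counts came from 20 members, 11 of which held 5 or more, and with members at 0.1% Klk1b its log2 ratio was 0.56, under 1.5-fold. The remaining 8 genes rest on 22 to 31 counts in the members. They are the interferon-induced GTPase gene Ifi47, the kinase genes Stk32a and Map3k7, the acyltransferase gene Agpat5, and Myef2, Ptges3l, Tmem107 and Tmem131. With members at 0.1% Klk1b the log2 ratios of Tmem107 and Ptges3l were 0.01 and -0.18, and after thinning that of Tmem107 was 0.24. Stk32a was 35.3 and 19.7 CPM in young Klk1b-rich and low-Klk1b cells, Agpat5 28.8 and 28.1, and Ifi47 11.3 and 16.9.

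Among the lowest ratios were genes of macrophages and spermatids. Aif1, a macrophage gene, was 5.13 CPM in members and 53.7 in low-Klk1b cells. Tnp2 and Prm1, which pack sperm chromatin, were 56.4 and 376 CPM and 159 and 747 CPM. In members 7 of the macrophage markers, including Lyz2, C1qa, Adgre1 and Cd74, were at 0, while all 12 had counts in low-Klk1b cells, 459 in sum. Elongating spermatid markers summed to 444 CPM in members and 1945 in low-Klk1b cells, while their median share per cell was 0.0213% and 0.0219%. Macrophage markers made up 1% or more of 6 low-Klk1b cells and of no member, and spermatid markers of 7 low-Klk1b cells and 1 member. Without Scrublet doublets the log2 ratio was -0.02 for Prm1 and -0.33 for Tnp2. Without the 6 members and 45 low-Klk1b cells that held 0.1% or more of either list, a limit chosen after these values were seen, Prm1 was 103 and 71.0 CPM and Tnp2 46.2 and 43.8. Prm1 and Tnp2 are themselves in the list that removed those cells, so their levels after it are a description. Aif1, which is in neither list, then stood at 5.33 and 16.0 CPM on 3 and 27 counts.

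The other named genes kept their direction in that smaller set. Tmsb4x, which encodes an actin-binding peptide, was 29.1 and 98.2 CPM with all cells and 28.4 and 40.2 without those cells, under 1.5-fold. Csrp2, a LIM domain gene, was 5.13 and 25.8 CPM on 3 and 48 counts with all cells, and 5.33 and 28.4 without. The ubiquitin ligase gene Rlim was 13.7 and 45.6 CPM on 8 and 85 counts, and in young Klk1b-rich and low-Klk1b cells 32.0 and 21.1. Coq10b, Kif2c, Slc19a2, Med29, Tsacc and Sec22a rest on 5 to 8 counts in members. Lcn2, Hsd3b1, Cdkn1a and Cd52 stayed past 1.5-fold in the same direction in the smaller set, with log2 ratios of 0.72, -0.65, -1.28 and 1.99.

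**Figure D5:**
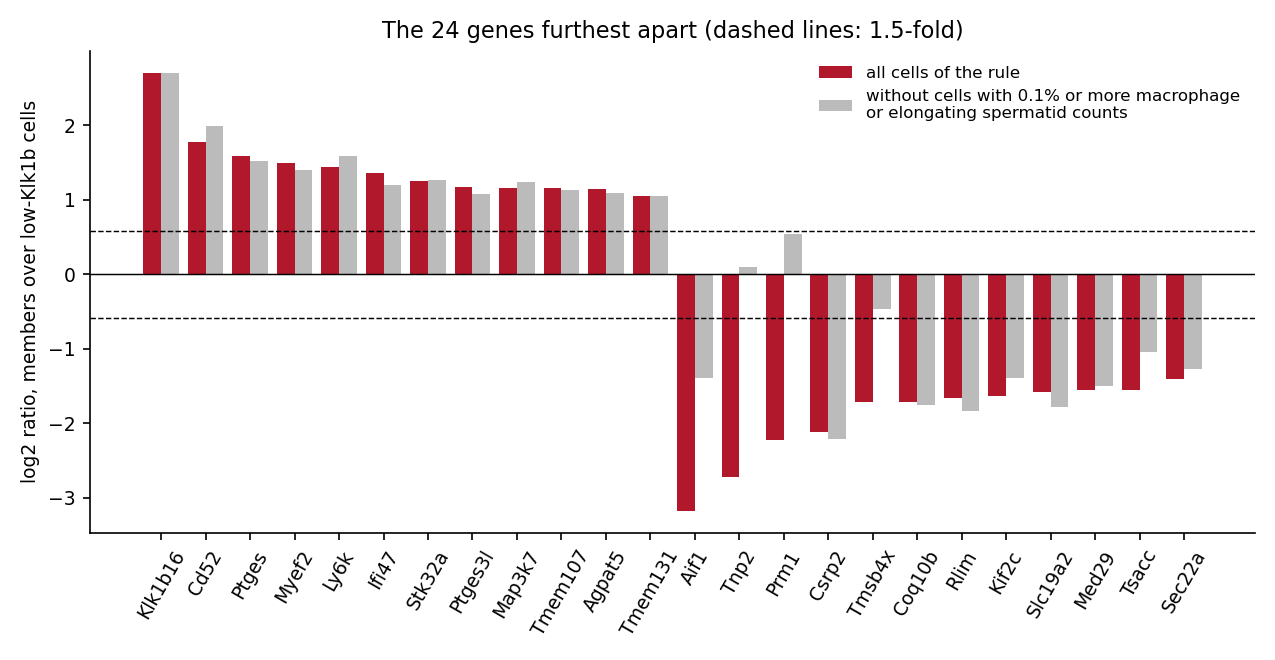
Log2 ratio (y) of members over low-Klk1b cells for the 24 named genes, with all cells (red) and without cells holding 0.1% or more macrophage or elongating spermatid counts (grey); dashed lines mark 1.5-fold. The 12 higher genes keep their bars, while those of Tmsb4x and Aif1 shrink, and those of Tnp2 and Prm1, whose counts chose the cells left out, turn.

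The young library, a separate sample, gave a further set of genes to read at 24 months. In young Leydig cells 91 genes were at least 2-fold higher and 108 at least 2-fold lower in the Klk1b-rich group by the same naming conditions. Of the 91, 57 were measured at 24 months: 6 were past 1.5-fold higher in members, 25 lower and 26 between, with a median of -0.50 against -0.01 for all genes. The shares over all measured genes were 3.54% higher and 7.92% lower. All 4 elongating spermatid markers (Prm1, Prm2, Tnp1 and Tnp2) are among the 25. That count was 3 of 39 measured genes without doublets and 8 of 14 after thinning. For 2 further settings, applied at both ages, the young library chose its genes anew. The count was then 4 of 35 with a Leydig minimum of 2% and 0 of 12 with a Klk1b limit of 0.1%. Once cells with 0.1% or more macrophage or spermatid counts were left out of both libraries, the young library chose other genes, and of 42 measured at 24 months 9 were higher in members and 4 lower. The 6 genes higher at both ages, named after their values were seen, are Klk1, Klk1b16, Cd52, Rab27a, Rarres1 and Chrd. Rab27a, a GTPase of secretory vesicles, was on 22 counts in members. Rarres1 had 119 counts in members and a log2 ratio of 0.73 at 24 and 1.09 at 2 months. Apoc1, an apolipoprotein also named after its value was seen, came close with 744 and 509 CPM at 24 months and 828 and 298 at 2 months.

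Of the 108 genes lower in young Klk1b-rich cells, 27 were measured at 24 months. Of these 11 were past 1.5-fold lower in members, 0 were past it higher and 16 lay between, with a median of -0.37. Among all measured genes 7.92% were past it lower and 3.54% higher. Cdkn1a led the 11, followed by Ccnd2, a D-type cyclin, with 16 counts in members and 115 in low-Klk1b cells (log2 ratio -1.14 at 24 and -1.23 at 2 months). The others were Fam49b, Zmat3, Gata6, Bcl2l1, Prkar2b, Gria3, Acap2, Igfbp4 and Acvrl1. Igfbp4, which binds insulin-like growth factors, was lowest in young cells, at 10.9 against 56.2 CPM, and was 20.5 and 32.7 CPM at 24 months. Fibroblast and peritubular markers moved with the young groups too, at 163 CPM in Klk1b-rich and 433 in low-Klk1b cells, and their part in these young ratios was not tested. In the aged groups those markers were 32.5 and 67.6 CPM, with Lum, Col1a1, Col1a2 and Acta2 at 0 in members.

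Set beside the young Klk1b-rich cells, the members were near them for some genes and far from them for others, and age and library cannot be told apart in any of these levels. Insl3 was 106 CPM in members and 114 in young Klk1b-rich cells, and Hsd3b1 978 and 1133. Lcn2 was 16030 and 13210 CPM. Cyp17a1 was lower in members, 1.49-fold, at 6952 against 10330 CPM. Cdkn1a in members, 68.4 CPM, lay above the 27.8 of young Klk1b-rich cells and below the 129 of young low-Klk1b cells. Cxcl10, a chemokine that interferon induces, was 520 CPM in members and 65.8 in young Klk1b-rich cells, and aged low-Klk1b cells had 340. In Cxcl10 the members were thus closer to aged low-Klk1b cells than to young Klk1b-rich cells, and in Lcn2 closer to the young Klk1b-rich cells.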

How the data were processed

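Single cells of mouse testis were measured on the BD Rhapsody system, 1 library per age. The authors deposited raw counts as whole numbers, with no normalization, for each cell and gene. Per the file headers, the aged table came from version 1.7.1 of the BD Rhapsody pipeline with a STAR 2.5.2b index. Cell Ranger 2.11 and mm10 are given per the submitters' processing notes. The young table has no header. Whether a count is a molecule, how cells were called and how reads shared by gene copies were treated is not given in the sources used here, so young and aged levels may differ through processing. The tables hold 53413783 (young) and 66390904 (aged) counts over 40184 and 39087 genes; genes found in 1 table only count as 0 in the other.

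A cell needed at least 500 counts from at least 200 genes, with mitochondrial transcripts no more than 25% of them, and 5812 of 6823 aged cells passed. Counts were summed per group (Python 3.11.15, scipy 1.17.1). Levels carry exact Poisson intervals, ratios conditional binomial intervals and shares Clopper-Pearson intervals. Floors are 3 counts per group. Cells are not replicates, so no p-value was made. Doublets were called with Scrublet in scanpy 1.11.5. Genes were named by rank or list position as stated in the results, without gene models and without globin, ribosomal and mitochondrially encoded genes. For lists the 2 most abundant genes and the 2 furthest from equality qualify, and further genes are given as examples. Lists held 14 sets of genes. Members and lists were chosen with earlier results of these data known. The counting rules were tested on simulated data. Alternatives covered depth, limits of the rule, doublets, thinning, averaging, scaling and the count minimum. The values of 1 gene of the cholesterol list are not reported here.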

Additional observations from a re-analysis of the deposited data

Results flagged for a closer look

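Among genes named by the rules, 4 went past 1.5-fold in opposite directions in the 2 libraries, and the difference between the libraries was not tested. The log2 ratio of Klk1b-rich over low-Klk1b cells was -2.72 at 24 months and 1.74 at 2 months for Tnp2, and -2.23 and 1.36 for Prm1. Without doublets the 24-month values were -0.33 for Tnp2 and -0.02 for Prm1. Without cells holding 0.1% or more macrophage or elongating spermatid counts these values were 0.09 and 0.44 for Tnp2 and 0.54 and 0.15 for Prm1, but both genes are among the counts that removed those cells. Ifi47 stood at 1.36 at 24 months and -0.63 at 2 months, and at 1.20 and 0.06 without those cells. Rpl10l, a ribosomal protein gene of the testis, stood at -1.05 and 1.37, and at -0.91 and 0.81 without them.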

How the results depend on the processing

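The members were 8.05% of aged Leydig cells with a Klk1b limit of 0.1%, and 14.9% to 19.0% under the other 5 changes of the cell rule. Genes past 1.5-fold, higher and lower, numbered 454 and 908 at 0.1%, 717 and 1306 with 20 counts, 61 and 140 with 100 counts, and 3805 and 4336 with 1 count per gene. The higher count was 383 with each cell weighted alike. The lower count was 199 after thinning to 2000 counts and 320 against cells with no Klk1b count. List genes past 1.5-fold higher, 9 as reported, numbered 15 at 0.1%, 14 with cells weighted alike, and 19, 5 and 37 with 20, 100 and 1 counts. Those lower, 14 as reported, numbered 9 with 100 counts and 34 with 1. Genes higher at both ages, 6 as reported, numbered 34 against cells with no Klk1b count, 10 with cells weighted alike, 12 with 20 counts and 13 with 1. Those lower at both ages, 11 as reported, numbered 73 at 0.1%, 2 after thinning, 4 against cells with no Klk1b count, and 25, 5 and 30 with 20, 100 and 1 counts. At 0.1%, with no Klk1b count and with a Leydig minimum of 2% the young library chooses its genes anew. The gene minimum changes how many genes are counted. Thinning does too, as it leaves fewer genes with 50 counts. Of the genes higher and lower at 2 months it left 14 and 7 measured, against 57 and 27 as reported. The 2 genes lower at both ages after thinning are thus of 7 measured. How much of the shifts after thinning came from this was not tested, nor was the cause of the other shifts.

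Among genes past 1.5-fold, the sign was the other one for Ptges3l (-0.18) and Saa3 (-0.27) at 0.1% and for Rsad2 (-0.51) after thinning. Tnp1 was 0.048 without doublets. Without cells holding 0.1% or more macrophage or spermatid counts, which was added after the data were seen, Tnp1 was 0.19, Tnp2 0.094, Prm1 0.54 and Prm2 0.00075. Counting genes near equality too, 22 of 1275 gene values, in 17 genes, and 23 of 195 list medians, in 5 lists, had the other sign, and 10 list medians, in 7 lists, were over 0.1 from the value reported. Across all 15 alternatives Lcn2 ran from 0.64 to 0.91, Hsd3b1 from -0.68 to -0.56, Cdkn1a from -1.65 to -0.81 and Cd52 from 1.76 to 2.27. Scaling by the median ratio shifted all genes by -0.01. No paired analysis was possible because each age has 1 library. Genes with under 30 counts in members have wide intervals, and 114 cells of 1 library set that limit.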
